A study of Drosophila melanogaster with 3 samples.

Results

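The 8 genes described here encode the machinery that copies, packages and transcribes mitochondrial DNA in Drosophila melanogaster: TFAM, mtSSB, PolrMT, mtTFB2, mtTFB1, mTTF, mTerf3 and mTerf5. They were taken from the annotation by name, as fly counterparts or relatives of genes that NRF-1 is known to regulate in vertebrates, and they are 8 of 13945 protein-coding genes. The data are maps of where a tagged form of Erect wing (Ewg), the fly relative of NRF-1, was recovered on chromatin. There was 1 group with 3 biological replicates: mixed-sex whole embryos aged 0 to 14 hours, from a transgenic line that stably carries ewg joined at its C-terminal end to eGFP. Chromatin was sonicated to 200 to 800 bp, and the labels describe precipitation with an antibody to GFP, although their antibody field names ewg. Whether the flies also kept untagged Ewg is not given in the sources used here. Chromatin came from all cells of the embryo together, so strong binding in few cells and weak binding in many cannot be told apart.

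Mitochondrial DNA is small, circular and present in many copies, and nearly every protein that maintains it is encoded in the nucleus. TFAM coats and compacts it, the single-stranded DNA binding protein mtSSB keeps the strands apart during copying, and the polymerase PolrMT transcribes it with the help of mtTFB2. The proteins of the mTERF family bind mitochondrial DNA or RNA and act on the ending of transcripts and on the mitochondrial ribosome. In vertebrates NRF-1 is known for activating nuclear genes of this kind.

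Tagged Ewg was mapped to the starts of 4 of the 8 genes: mtSSB, PolrMT, mtTFB1 and mTerf5. Each had a summit of the authors' optimal set, the peaks that passed their test of reproducibility, within 500 bp of its transcript start. A further 2, mtTFB2 and mTerf3, had only weak summits there, found in the pooled list of peaks and background and not in the optimal set. TFAM and mTTF had no summit within 500 bp in the pooled list or in the list of any replicate. The window of 500 bp had, in the pooled list, the mtTFB2 summit at 379 bp as the farthest inside it and a weak mtSSB summit at 1070 bp upstream (signal 68.6) as the nearest outside. Of all protein-coding genes, 26.4% had an optimal summit within 500 bp of a start and 46.8% had a summit of the pooled list there, against 4 and 6 of these 8. With so few genes these counts describe the 8 genes and are no test.

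**Figure D1:**
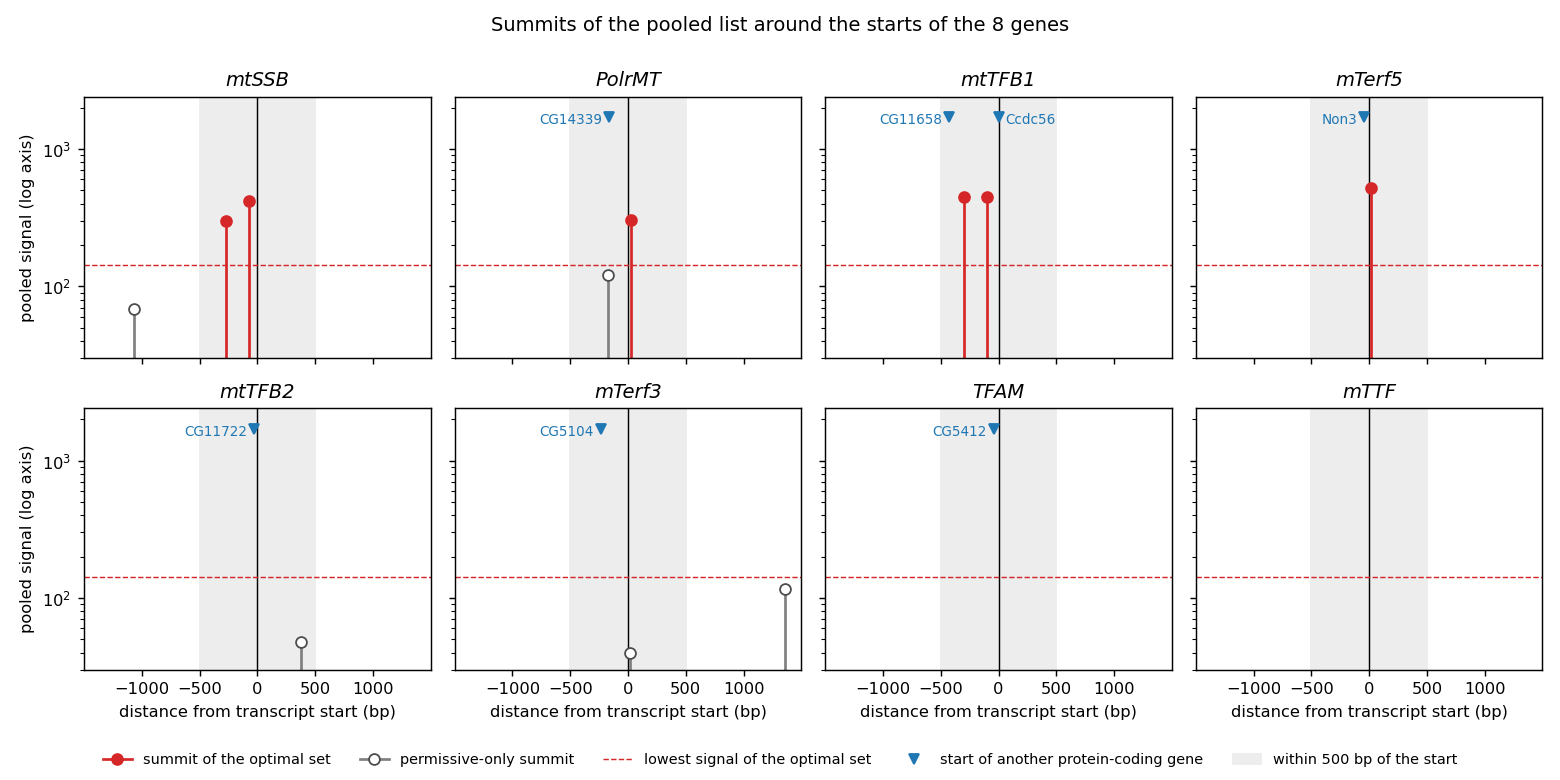
Pooled signal (log axis) of every summit of the pooled list within 1500 bp of the transcript start of each gene, with distance counted in the direction of transcription and the start at 0. Filled red points are summits of the optimal set, open points are permissive-only summits, blue triangles mark starts of other protein-coding genes, and the dashed line is the lowest signal of the optimal set, 141.8. The upper 4 genes have 1 or 2 filled points close to the start, the weak summits of mtTFB2 and mTerf3 lie below the dashed line, and TFAM and mTTF have none.

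Signal is the authors' value for each region and has no unit. The pooled list held 30000 regions with signal up to 4999 and a median of 59.3, and the 6793 regions of the optimal set had a median of 269.9. The replicate lists held 30000 regions each and differ in scale. For comparison across replicates, the signal of a summit was therefore divided by the replicate's median over the 5852 optimal peaks matched within 100 bp in all 3 lists (81.4, 123.7 and 84.1 in replicates 1, 2 and 3). On this relative scale 1 is the middle of the shared peaks. Depth of the libraries is unknown from these lists. No list held a region on the mitochondrial chromosome, or on any other sequence outside X, Y, 2L, 2R, 3L, 3R and 4. Lists restricted to these chromosomes would look the same, so signal on mitochondrial DNA cannot be judged from them.

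Of the 2 replication and packaging genes, mtSSB had optimal summits and TFAM did not. In the dm6 assembly mtSSB occupies chromosome 3R from 16204194 to 16205250 on the minus strand, with 1 annotated start, as have all 8 genes. Its stronger summit, at 16205320, was 70 bp upstream of the start, with a pooled signal of 420.4 and rank 1847. The other, at 16205520, was 270 bp upstream, with a pooled signal of 299.2 and rank 2979. Both lie in intergenic sequence, and mtSSB was the nearest gene to each. At the stronger summit replicate 1 had a relative signal of 1.20 and replicate 2 of 2.09, and replicate 3 had no summit within 100 bp. At the other summit the relative signals were 0.70, 0.99 and 1.48 in replicates 1, 2 and 3, a mean of 1.06 ± 0.395 (SD, n = 3). Within 500 bp of the mtSSB start, replicates 1 and 2 thus each had 2 summits, the stronger nearer to the start, while replicate 3 had 1, at 309 bp upstream.

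TFAM (3R, minus strand, 20575245 to 20577010) shares its upstream region with CG5412, whose start lies 43 bp away on the other strand. The nearest summit of the pooled list was 3079 bp downstream of its start, beyond the end of the gene, with a signal of 34.6 and rank 26420, and the nearest of the optimal set was 10870 bp upstream. Replicate 2 had weak summits at 1320, 1946 and 2181 bp downstream of the start, of which only the first lies within the gene, with ranks 27754, 20623 and 17690. Replicates 1 and 3 had none within the gene or 1500 bp of it. The stretch between the starts, with 10 bases of CG5412, is shown 5′ to 3′ on the strand of the gene, as are all sequences here (chr3R:20577011-20577062, minus strand, dm6). Capitals mark a stretch within 1 mismatch of the DRE, TATCGATA, the site of the transcription factor DREF, a regulator of many growth and replication genes in flies.
TFAM: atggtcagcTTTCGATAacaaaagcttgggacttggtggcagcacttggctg
The marked stretch lies 43 to 36 bp before the start of TFAM and reaches the start of CG5412.

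Among the transcription genes, PolrMT had an optimal summit and mtTFB2 did not. PolrMT, the gene of the mitochondrial RNA polymerase, runs from 1103254 to 1108373 on chromosome 2L, minus strand. The summit at 1108349 lay 24 bp downstream of its start, in the 5′ UTR, with a pooled signal of 301.2 and rank 2956. Relative signals were 1.10, 0.96 and 0.98 in replicates 1, 2 and 3, a mean of 1.01 ± 0.0786 (SD, n = 3). This was the smallest spread among the 6 optimal summits of these genes. A second summit of the pooled list, at 1108548, lay 8 bp from the start of CG14339, which is transcribed away from PolrMT from a start 167 bp upstream. Its pooled signal of 119.8 (rank 7970) was below the lowest value of the optimal set, and its relative signal was 0.26 in replicate 1 and 0.30 in replicate 2, with no match in replicate 3.

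The 30 bases around the PolrMT summit (chr2L:1108333-1108362, minus strand) hold the short core of the NRF-1 site, GCGCA on the other strand, and an E-box, CACGTG, both in capitals.
PolrMT: caactgctTGCGCcgccaCACGTGaagtgc
No other optimal summit of the 8 genes had GCGCA within 100 bp, while 41.6% of all optimal summits had it.

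The transcription factor gene mtTFB2 (3R, plus strand, 10045574 to 10047260) had 1 summit of the pooled list, at 10045953 in a coding exon 379 bp downstream of the start. Its pooled signal was 48.0 and its rank 18493. The strongest summit within 500 bp ranked 23925 in replicate 1 and 14363 in replicate 2, and replicate 3 had none. The nearest optimal summit was 2379 bp upstream. The start of CG11722, which RefSeq also lists as the fly NDUFAF4, an assembly factor of respiratory complex I, lies 32 bp upstream on the other strand. An exact DRE overlaps that start. It is in capitals in the 41 bases before mtTFB2 (chr3R:10045533-10045573, plus strand).
mtTFB2: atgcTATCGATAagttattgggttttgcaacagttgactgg
The same 8 letters occur close to the start of mTerf5, which has an optimal summit.

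The gene mtTFB1, a relative of mtTFB2 known mainly as a methyltransferase of mitochondrial ribosomal RNA, had a pair of nearly equal summits. It lies on the plus strand of chromosome 3L from 11708979 to 11710570 and shares its start with Ccdc56, which encodes an assembly factor of cytochrome c oxidase. The summit at 11708681 was 298 bp upstream, with a pooled signal of 449.7 and rank 1661, and that at 11708883 was 96 bp upstream, with 443.2 and rank 1704. The nearest gene to the farther summit was CG11658, 128 bp away on the other strand. To the closer summit mtTFB1 and Ccdc56 were equally near, so neither summit belongs to mtTFB1 alone. At the farther summit the relative signal was 1.76 in replicate 1 and 1.38 in replicate 2, and the nearest summit of replicate 3 was 104 bp away, just past the limit of 100 bp. At the closer summit the values were 0.36, 1.08 and 1.62 in replicates 1, 2 and 3, a mean of 1.02 ± 0.63 (SD, n = 3). Here replicate 3 was matched at 98 bp, by the same summit, which lies between both summits of the pooled list.

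The 300 bases before the start shared by mtTFB1 and Ccdc56 (chr3L:11708679-11708978, plus strand) hold both summits. Capitals mark a stretch within 1 mismatch of the DRE and, near the start, the core of the site of the promoter factor M1BP (GGTCACAC, here on the other strand).
mtTFB1: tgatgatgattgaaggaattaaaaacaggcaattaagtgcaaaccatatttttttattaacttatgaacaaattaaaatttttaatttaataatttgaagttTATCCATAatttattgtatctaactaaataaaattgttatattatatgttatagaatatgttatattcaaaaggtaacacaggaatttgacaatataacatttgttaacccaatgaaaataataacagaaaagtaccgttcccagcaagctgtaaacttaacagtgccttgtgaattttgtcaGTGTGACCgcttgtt
The sequence is poor in G and C, 25.3%, and the window of 250 bases before to 50 after the start has 29% in mtTFB1, against a median of 38% over all promoters.

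Of the 3 mTERF family genes, mTerf5 had an optimal summit, mTerf3 a weak one and mTTF none. The protein of mTerf5 is known in flies as a partner of mTTF in the control of mitochondrial transcription. It occupies 18221522 to 18223682 of chromosome 3R on the minus strand, and the nucleolar protein gene Non3 starts 40 bp upstream on the other strand. Its summit at 18223667 lay 15 bp downstream of the start, in the 5′ UTR. With a pooled signal of 522.8 and rank 1333, it was the strongest promoter summit among the 8 genes in the pooled list. Relative signals were 1.48, 1.88 and 1.75 in replicates 1, 2 and 3, a mean of 1.70 ± 0.202 (SD, n = 3). All 3 replicates placed the summit within 14 bp of the pooled one. The strongest promoter summit among the 8 genes was that of mtTFB1 in replicate 1, mtSSB in replicate 2 and mTerf5 in replicate 3. The 39 bases between the starts of Non3 and mTerf5 (chr3R:18223683-18223721, minus strand) are shown for the exact DRE that ends 3 bp before the start, in capitals with a second stretch of 1 mismatch.
mTerf5: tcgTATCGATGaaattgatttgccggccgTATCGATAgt
A stronger optimal peak (summit 18220415, pooled signal 1066, rank 369) lay 3267 bp downstream of the mTerf5 start, in an intron of CG7183 and 111 bp from the start of CG7988, outside mTerf5.

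The summit of mTerf3 (3L, minus strand, 20519590 to 20520772), known in flies for its part in building the mitochondrial ribosome, was 15 bp downstream of its start at 20520757, with a pooled signal of 39.5 and rank 22756. Its relative signal was 0.30 in replicate 1 and 0.13 in replicate 2, with no summit within 500 bp of the start in replicate 3. The gene CG5104 starts 237 bp upstream on the other strand. A stronger permissive summit (115.4, rank 8245) lay 24 bp from the start of BNIP3, a mitophagy receptor gene that follows mTerf3 on the same strand. The termination factor gene mTTF (2L, minus strand, 14347239 to 14348790) had no summit within the gene or 500 bp of its start in any list. The nearest, in replicate 2, was 1334 bp upstream with rank 22956, and the nearest of the optimal set was 6958 bp upstream.

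The genes were also compared by the strongest summit within 500 bp of the start in each list, whatever its exact place, an alternative chosen after seeing the data. On this measure mTerf5 had a mean relative signal of 1.70 ± 0.202, mtSSB of 1.59 ± 0.459, mtTFB1 of 1.58 ± 0.191 and PolrMT of 1.01 ± 0.0786 (SD, n = 3 each). The first 3 did not differ beyond their spread: mTerf5 exceeded mtSSB in 2 of 3 replicates by 0.112 ± 0.285, and mtSSB exceeded mtTFB1 in 1 of 3 by 0.00596 ± 0.65 (SD of the difference, n = 3). PolrMT was below mtTFB1 in all 3 replicates, and mtTFB1 minus PolrMT was 0.571 ± 0.131 (SD of the difference, n = 3), larger than the spread. These differences depend on the measure. With optimal summits matched within 100 bp in all 3 replicates, mtTFB1 (summit 11708883) minus PolrMT was 0.00458 ± 0.698, above 0 in 2 of 3. On that measure mTerf5 minus mtSSB (summit 16205520) was 0.645 ± 0.331, above 0 in all 3. The difference of mtSSB minus mtTFB1 was 0.0394 ± 0.261, above 0 in 1 of 3. No test was run on these differences.

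**Figure D2:**
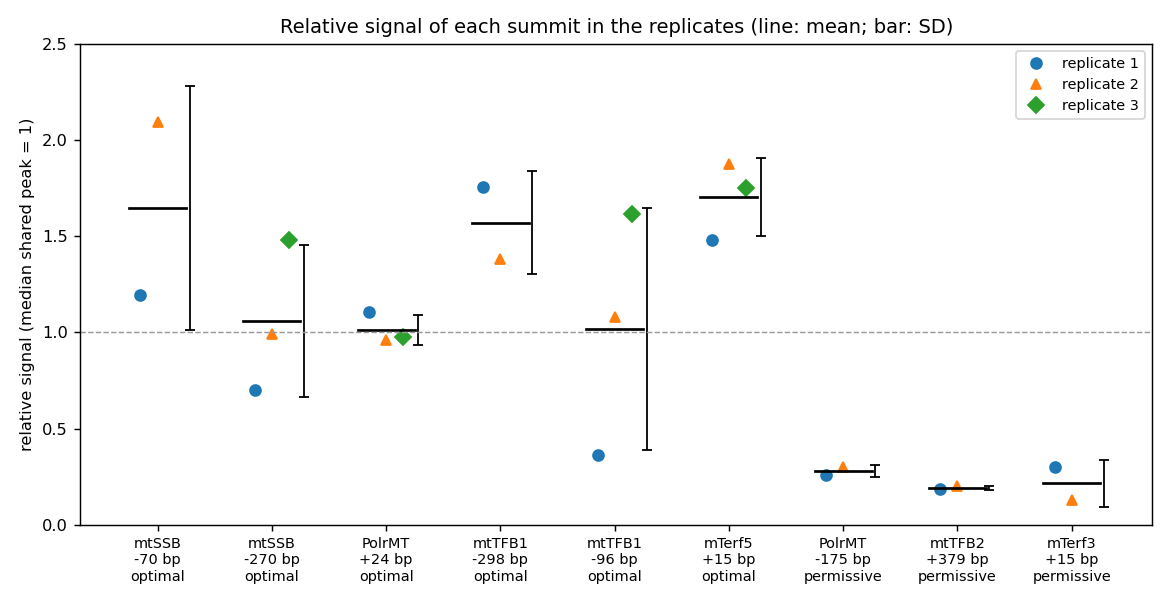
Relative signal (the replicate's median shared peak is 1) of each optimal and permissive-only summit within 500 bp of a start, with a point for each replicate that had a summit within 100 bp, the mean as a line and the SD as a bar. Optimal summits have means from 1.01 to 1.70 and permissive-only summits have points from 0.13 to 0.30.

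In every replicate list the strongest summits of the 4 bound genes lay among the 6793 strongest regions, 6793 being the size of the optimal set. Their ranks ran from 1381 to 1785 for mTerf5, 1368 to 2096 for mtTFB1, 1172 to 2480 for mtSSB and 2758 to 3373 for PolrMT. The weak summits of mtTFB2 and mTerf3 ranked between 11876 and 26892 in replicates 1 and 2 and were absent from replicate 3. Replicate 2 had a summit within 500 bp of a start for 54.4% of all protein-coding genes, replicate 1 for 44.5% and replicate 3 for 42.9%, against 6, 6 and 4 of the 8 genes. The strongest pooled signal per bound gene had a median of 435.0 over the 4 genes and 318.9 over all 3679 bound genes, and 46.6% of bound genes had a lower signal than PolrMT and 72.1% a lower one than mTerf5.

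**Figure D3:**
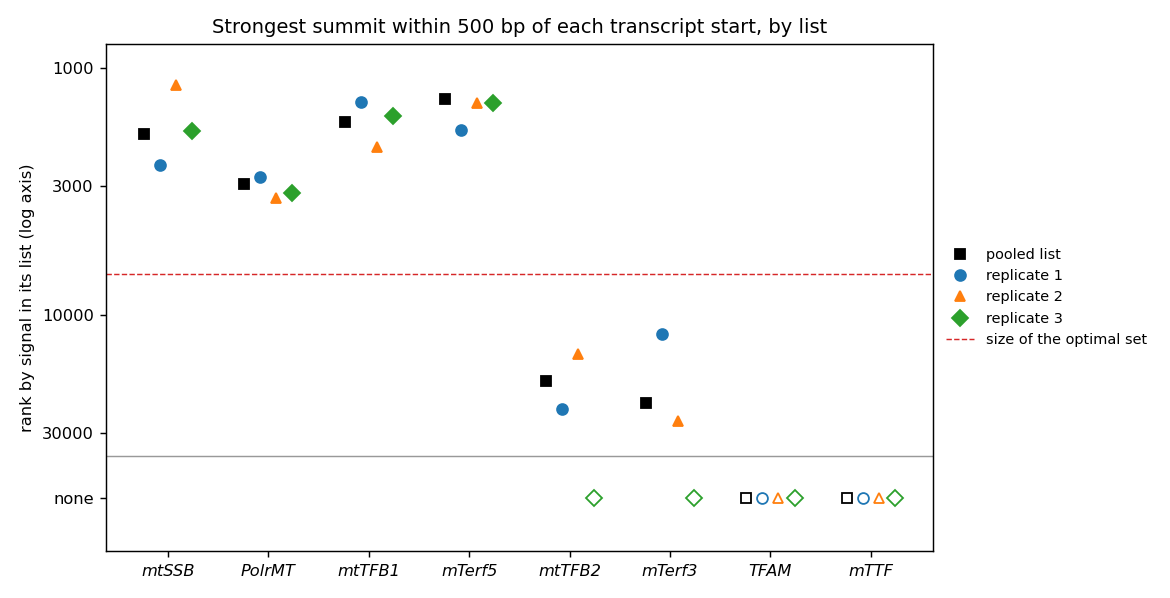
Rank by signal (log axis, strongest at the top) of the strongest summit within 500 bp of each transcript start in the pooled list and in each replicate list, with open symbols where a list had none. The 4 bound genes lie above the dashed line at 6793 in every list, mtTFB2 and mTerf3 lie below it and are missing from replicate 3, and TFAM and mTTF are missing throughout.

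The pairs of summits at these genes lie at or near the smallest spacing found in the lists. The distance between paired summits was 199 bp at PolrMT, 200 bp at mtSSB and 202 bp at mtTFB1, and 199 bp was the smallest distance between any summits in each of the 5 lists. Of all optimal summits, 12.4% had another optimal summit within 250 bp. In the pooled list the share with another summit of that list within 250 bp was 22.6%.

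Most of the 8 genes have a close neighbour that is transcribed away from them. A protein-coding gene on the other strand starts within 500 bp upstream of 6 of the 8, all except mtSSB and mTTF, and of 26.4% of all protein-coding genes. Such genes were bound in 46.2% of cases genome-wide and the others in 19.2%. Of the 6 genes with a head-to-head neighbour, 3 (PolrMT, mtTFB1 and mTerf5) were bound, near the 46.2% of genes so arranged. Of the other 2, mtSSB was bound. The window cannot separate the members of such a pair, and the closest pairs, at mtTFB2, mTerf5 and TFAM, have their starts 32, 40 and 43 bp apart.

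Other genes of mitochondrial DNA and RNA upkeep gave a mixed picture, with optimal summits at 6 of 20, beside 26.4% of all genes. The list was written with earlier results of these data known. In its replication and nucleoid group, 1 of 9 was bound, beside 26.4% of all genes. The other 8 had no summit of the pooled list within 500 bp, while 46.8% of all genes had one. These 8 include both subunits of the mitochondrial DNA polymerase, PolG1 and PolG2, and the helicase gene mtDNA-helicase. The bound gene, Lon, encodes the matrix protease known to degrade TFAM. Its relative signals were 6.63, 3.95 and 6.25 in replicates 1, 2 and 3, a mean of 5.61 ± 1.45 (SD, n = 3), above the highest value of any of the 4 bound genes described above in every replicate. Its summit lay 119 bp from the start and ranked 131 in the pooled list.

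In the group for mitochondrial RNA handling, 5 of 11 were bound, beside 26.4% of all genes. A further 3 had only permissive summits, and 46.8% of all genes had a summit of the pooled list within 500 bp. With so few genes in each group these counts are no test. PNPase, the mitochondrial polynucleotide phosphorylase, had relative signals of 9.11, 6.68 and 9.08 in replicates 1, 2 and 3, a mean of 8.29 ± 1.40 (SD, n = 3), from a summit 81 bp from 1 of its 3 annotated starts. SLIRP2, an RNA-binding protein gene, had 6.71, 4.43 and 6.57, a mean of 5.90 ± 1.27 (SD, n = 3), from a summit nearer to the start of Mkk4. SLIRP1 reached 1.56 ± 0.261 (SD, n = 3), from a summit as near to the start of anox. The tRNA processing genes mldr and RNaseZ had weaker peaks: mldr had 0.677 ± 0.209 (SD, n = 3), and RNaseZ had 0.69 in replicate 2 alone.

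**Figure D4:**
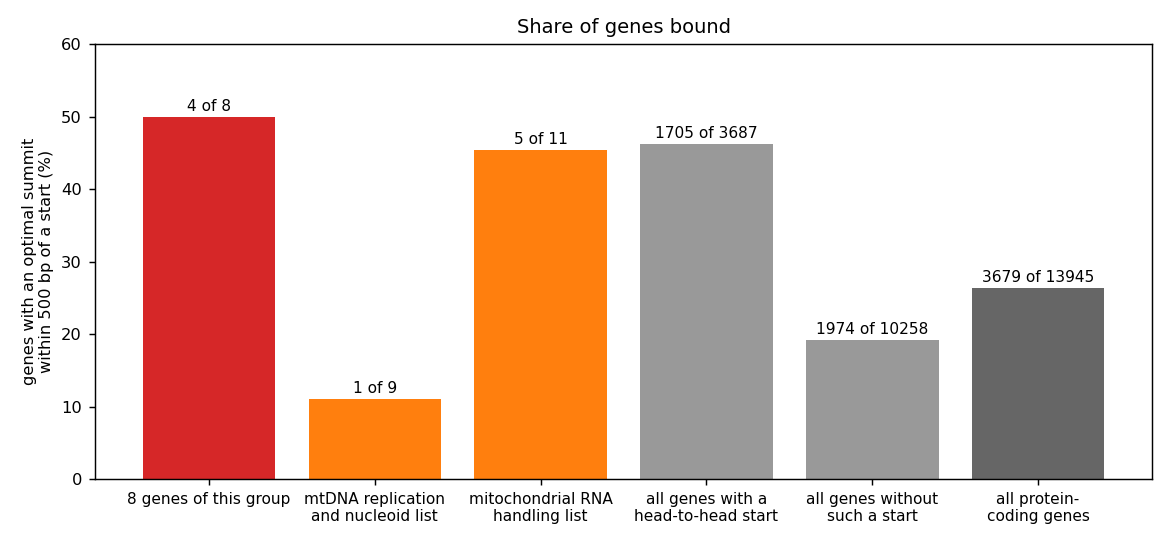
Percentage of genes with an optimal summit within 500 bp of a transcript start, for the 8 genes, the 2 groups of the wider mitochondrial list, and all protein-coding genes with and without a head-to-head start within 500 bp and together, with counts above the bars. The 8 genes stand at 4 of 8, the replication and nucleoid group at 1 of 9, the RNA handling group at 5 of 11 and all genes at 3679 of 13945.

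The palindrome of the vertebrate NRF-1 site was not found at these genes. It was in none of the 8 promoter windows (250 bases before to 50 after the start) and within 100 bp of none of the 6 optimal summits. It is rare in any case, present in 0.258% of all promoters and at 1.94% of all optimal summits. The closest match had 2 mismatches in a promoter window and 3 at an optimal summit, while 28.1% of all optimal summits had a match with at most 2. The core GCGCA was in the promoter windows of 3 genes (mtSSB, PolrMT and mTerf5) and in 31.1% of all promoters. Within 100 bp of optimal summits it was found in 1 of 6, against 41.6% of all optimal summits, and within 250 bp in 4 of 6, against 66.1%. The palindrome holds the core within it, so these counts overlap. At mTerf5 an E-box also overlaps a core.

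Promoter motifs of other factors were found in part of the set. An exact DRE was in 2 of the 8 windows (mtTFB2 and mTerf5) and in 9.36% of all promoters, and with at most 1 mismatch it was in 6 of 8 and in 27.6% of all. The genes without it at 1 mismatch were PolrMT and mTerf3. The E-box CACGTG was in 3 windows (PolrMT, mtTFB2 and mTerf5) and in 4.2% of all promoters, and the M1BP core in 2 (mtTFB1 and mTerf3) and in 7.7% of all. The GAGA motif, GAGAGAG, was in none of the 8 and in 5.87% of all promoters. All were sought on both strands. A match says that the letters are present and not that a factor binds.

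**Figure D5:**
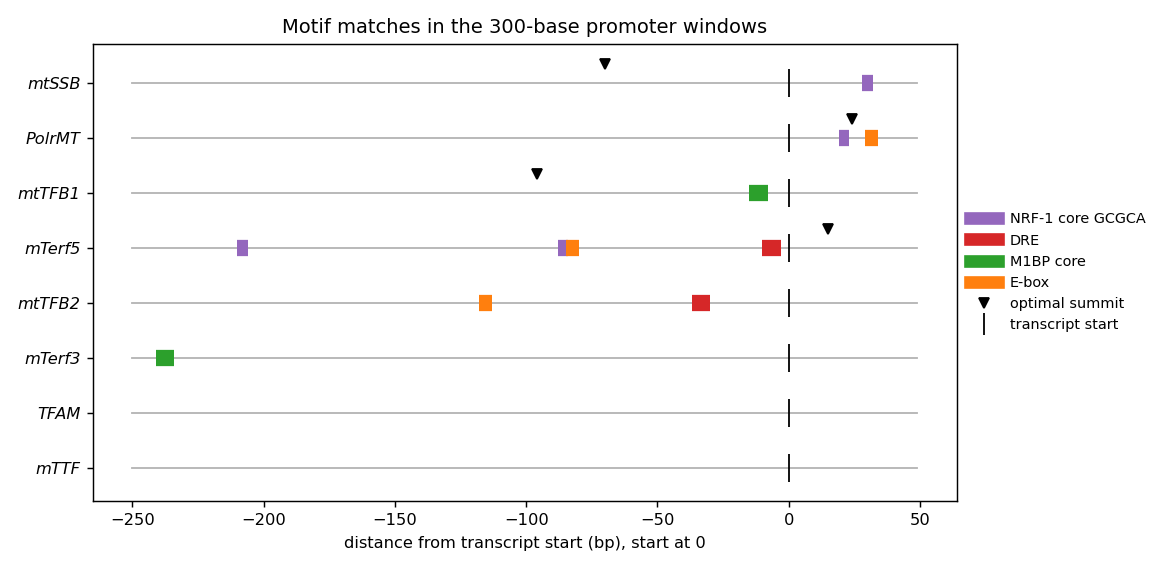
Positions of exact motif matches on either strand in the window from 250 bp before to 50 bp after each transcript start, with the start at 0 and optimal summits in the window as triangles. NRF-1 cores (GCGCA) lie at mtSSB, PolrMT and mTerf5, and exact DREs lie close to the starts of mTerf5 and mtTFB2.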

How the data were processed

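The authors deposited peak lists on dm6 in narrowPeak form: a permissive list of peaks and background for each of the 3 replicates, 1 for the replicates pooled, and an optimal set thresholded by irreproducible discovery rate (IDR). Per the file headers and records, each permissive list derives from replicate alignments and a shared control alignment, and the optimal set from the permissive lists; no aligner, peak caller or setting is named there. The deposited signal of each region was used as given. The deposited −log10 q-value is tied at its maximum for many regions (9.66% to 100% by list), so regions were ranked by signal. Read counts are not part of the lists, so depth is unknown. Lists on dm3 were not used.

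Starts came from Ensembl release 115 (13945 protein-coding genes on X, 2L, 2R, 3L, 3R and 4) and sequence from the NCBI RefSeq dm6 assembly, in which 99.9% of annotated start codons read ATG. A gene is bound when an optimal summit lies within 500 bp of any of its starts; genes sharing a summit each count. Positions count from 1. Replicate summits were matched within 100 bp. Values are mean ± SD over replicates; no test between groups was possible with 1 group, and the labels call the replicates biological. Functions were tested on simulated data.

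The members, lists, motifs and alternatives were chosen with earlier results of these data known. Named are the 8 genes, genes sharing or nearest to their summits, and up to 4 bound genes in each group of the wider list with the highest relative signal; other bound genes of that list (mldr), the unbound PolG1, PolG2 and mtDNA-helicase, CG5412, Mkk4, anox, CG7183, CG7988 and BNIP3 were named after their values were seen. Of the 21 genes of the wider list, 1 matched no symbol. Python 3.11.15, numpy 2.4.6, pandas 2.3.3 and matplotlib 3.10.9 were used. The sequence upstream of mtSSB is not reported here.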

Additional observations from a re-analysis of the deposited data

How the results depend on the processing

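The count of 4 bound genes was the same with windows of 250 and 1000 bp, with the outermost start only, with only the nearest gene counted, and with the stronger of 2 equal parts of the optimal set, where 2206 (strongest peaks) to 4183 (1000 bp) of all genes were bound. RefSeq starts and peaks matched in all 3 replicate lists, both chosen after seeing the data, gave the same 4. The shares of all genes beside them were 26.4% and 22.8%. It was 3, without mtTFB1, when the peak interval had to overlap the start, beside 18.0% of all genes. Peaks were not called again without a replicate. Optimal summits were kept if both other replicates had a summit within 100 bp among their 6793 strongest regions. This gave 3 to 4 bound genes, beside 19.6% to 20.5% of all genes. The gene mtTFB1 was lost without replicate 2, though replicates 1 and 3 had summits of rank 1368 and 1564 within 500 bp. The replicate 3 summit was 104 bp from the farther summit, and the replicate 1 match to the closer summit ranked 9646. The wider list had 4 to 6 bound genes over all settings, and 4 to 5 when summits were filtered by both other replicates in this way. A permissive summit was near 5 of the 8 genes with 250 bp, beside 38.5% of all genes, and near 4 in all 3 replicate lists, beside 32.2%. With at most 1 mismatch the DRE was in 6 of 8 promoter windows, beside 27.6% of all, and at 2 of 6 optimal summits, beside 13.3% of all. Within 250 bp of summits the core GCGCA was at 4 of 6, beside 66.1% of all optimal summits. By interval overlap or as the strongest summit within 500 bp, the mean was 1.59 in place of 1.06 for the second mtSSB summit and 1.58 in place of 1.02 for the closer mtTFB1 summit, since both settings take the stronger neighbouring summit where a replicate has one. Leaving out a replicate gave means of 0.719 to 1.35 for that mtTFB1 summit. The PolrMT mean was between 0.968 and 1.08 under the 7 settings tried. No paired analysis was possible because there is 1 group.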
